A study of Sus scrofa with 6 samples.

Results

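Genes of heme breakdown and iron transport were examined in the abdominal aorta of male Wuzhishan miniature pigs, of which 3 had been fed normal chow (NC) and 3 a diet high in fat, cholesterol and fructose (HFCF) for 6 months. The set named 10 genes (HMOX1, BLVRA, BLVRB, FTH1, SLC11A1, SLC11A2, STEAP3, SLC48A1, IREB2 and ACO1) of the 30477 genes in the table. It was drawn up as a complement to ferritin light chain (FTL), transferrin receptor (TFRC) and ferroportin (SLC40A1). Of the 10 genes, 7 were found by gene name. FTH1 was found through the NCBI gene number in the description of a gene without a symbol, and HMOX1 and SLC11A2 were not matched and are not analysed here. The HFCF feed was chow with added shortening oil, egg yolk, cholesterol and fructose. The labels give an age of 3 to 4 months and the methods of the study an older age at purchase. Each library came from total RNA of 1 pig, and pieces of aorta hold every cell type of the vessel wall and of any plaque in it.

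Macrophages take up old red blood cells and hemoglobin, carry the heme out of the phagolysosome, and open the ring with heme oxygenase, which releases iron, carbon monoxide and biliverdin. Biliverdin reductases turn biliverdin into the antioxidant bilirubin, and the iron is stored in ferritin or leaves through ferroportin. The iron regulatory proteins bind iron-responsive elements in messenger RNAs, by which iron-poor cells hold back ferritin synthesis and stabilise the transferrin receptor message. Bleeding into plaques makes heme and iron a recurrent subject in atherosclerosis.

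Expression is given as FPKM, a read density per kilobase of exon scaled to the mapped reads of the library. Differences were tested with limma, on log2(FPKM + 0.1), in 15384 genes whose mean was at least 0.1 FPKM, and a gene was called at a Benjamini-Hochberg adjusted p under 0.05. All 8 matched genes passed this filter, and each of them had a value above 0 in all 6 libraries. Because of the added 0.1, low genes changed by more than their log2 fold change says. The exact permutation test of a single value (two-sided, 3 pigs per group) has p = 0.1 as its floor. The FPKM values of a library summed to between 272207 and 287141 in NC pigs and between 330222 and 338690 in HFCF pigs, and the median over all tested genes of the log2 fold change was 0.32. Median-ratio scaling moved that median to -0.00, quantile normalization to -0.07 and TPM to 0.08, so differences are also given relative to it. Read counts were not used here. The commonest ratios between low values gave relative depths of 1 to 1.37, so no library was much shallower than another. Smooth muscle markers identified the tissue, with ACTA2 between 3359 and 9145 FPKM. The first HFCF pig stood apart in hemoglobin beta (HBB), which was 2846 FPKM there and 21.3 to 174.5 FPKM in the other 5 libraries.

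Of the 8 genes, 6 were called. BLVRA, BLVRB, SLC11A1 and IREB2 rose in the HFCF group, SLC48A1 and ACO1 fell, and FTH1 and STEAP3 were not called. Among all tested genes 28.9% were called, 22.8% as higher and 6.16% as lower. The median log2 fold change of the 8 genes was 0.55, which is 0.23 above that of all genes. The groups did not overlap in 7 of the 8, with 5 genes higher under the HFCF diet and 2 lower, where 48.2% of all tested genes did not overlap, 36.1% higher and 12.1% lower. Overlap was judged on FPKM as deposited and not after any of the scalings. By the thresholds of the study for differentially expressed genes, a ratio of group means above 2 or below 0.5 with an unadjusted p under 0.05, SLC11A1 and IREB2 passed, both as higher. The same thresholds were passed by 25.5% of all tested genes, 20.7% as higher and 4.82% as lower. Under median-ratio scaling and as TPM the 2 genes that passed were SLC11A1 as higher and SLC48A1 as lower. The split of 4 higher and 2 lower became 1 higher (IREB2) and 2 lower (SLC48A1 and ACO1) under median-ratio scaling and as TPM, and quantile normalization left the same 2 lower genes alone. The count of 6 also depended on every library. It was 1 without the first NC pig, 3 without the second and 2 without the third, and it was 3 without the first HFCF pig, 1 without the second and 3 without the third.

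**Figure D1:**
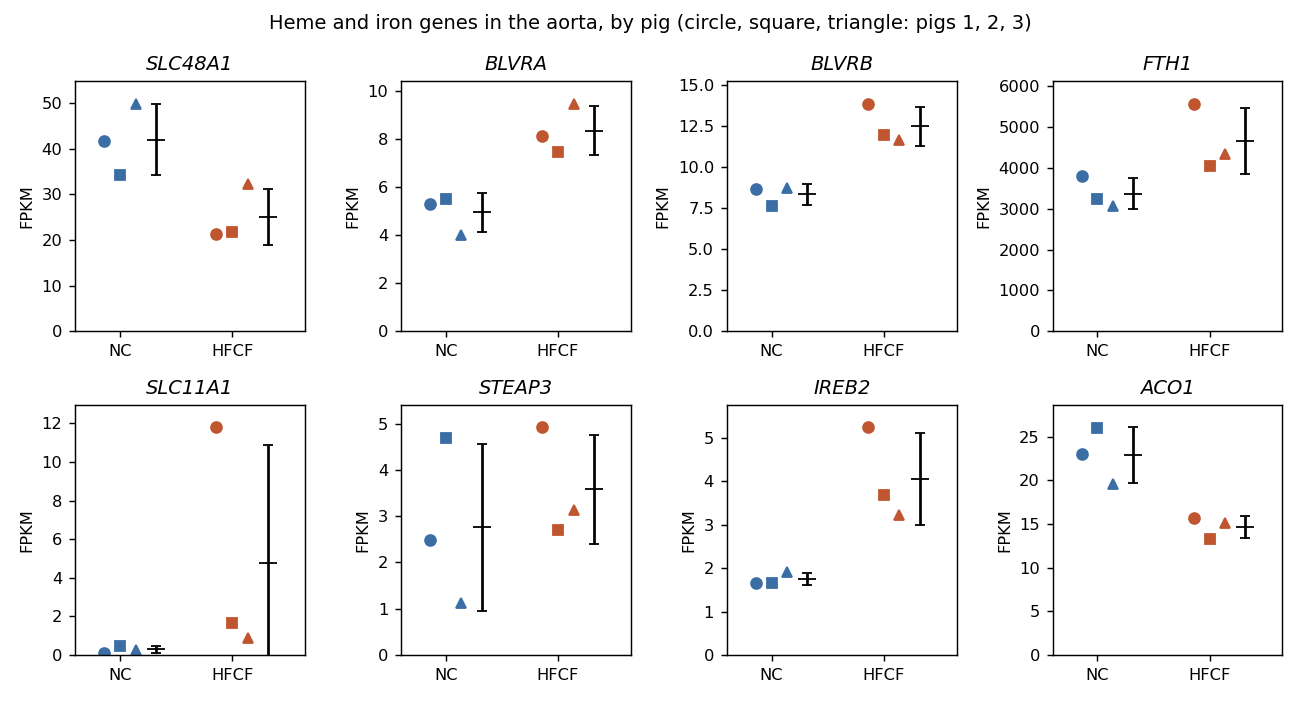
FPKM of the 8 matched genes in each of the 6 pigs (circle, square and triangle for pigs 1, 2 and 3 of a group), with the mean and SD of each group beside the points. The bar of SLC11A1 in the HFCF group runs below 0 and is cut at the axis. The groups overlap in STEAP3 alone, and SLC11A1 has 1 high HFCF pig at 11.8 FPKM.

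SLC48A1 encodes HRG1, which moves heme from the lysosome or phagolysosome into the cytosol. Its level was 41.8, 34.3 and 49.9 FPKM in the NC pigs and 21.3, 21.7 and 32.2 FPKM in the HFCF pigs. All HFCF values lay below all NC values, although the third HFCF pig came within a few FPKM of the second NC pig. The mean fell from 42.0 ± 7.80 to 25.1 ± 6.20 FPKM (SD, n = 3 each), with a log2 fold change of -0.75 (SE 0.22, limma adjusted p = 0.0413). This is -1.07 relative to all genes, and the call held under each of the 3 scalings. It was lost without the first or the third NC pig and without the first or second HFCF pig, with an adjusted p between 0.0985 and 0.117 (limma), and also without the filter on low values or without the variance trend. With the biliverdin reductases called as higher, the 3 matched genes of heme transport and breakdown did not share a direction.

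BLVRA and BLVRB encode the 2 biliverdin reductases. BLVRA makes the main bilirubin of the adult, while BLVRB acts on another biliverdin isomer and also reduces flavins. BLVRA stood at 5.31, 5.53 and 4.02 FPKM in the NC pigs and at 8.15, 7.46 and 9.48 FPKM in the HFCF pigs. It rose in every HFCF pig above every NC pig, from a mean of 4.95 ± 0.81 to 8.36 ± 1.03 FPKM (SD, n = 3 each). The log2 fold change was 0.75 (SE 0.19, limma adjusted p = 0.0272), or 0.43 above the median of all genes. BLVRB stood at 8.66, 7.61 and 8.73 FPKM in the NC pigs and at 13.8, 12.0 and 11.7 FPKM in the HFCF pigs. Its groups did not overlap either, and its mean rose to 12.5 ± 1.19 FPKM from 8.33 ± 0.63 FPKM (SD, n = 3 each). The log2 fold change was 0.58 (SE 0.15, limma adjusted p = 0.0287), or 0.26 above the median of all genes.

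Neither reductase kept its call under any of the 3 scalings, where the log2 fold change lay between 0.40 and 0.49 for BLVRA and between 0.22 and 0.32 for BLVRB. The call of BLVRA was lost without any 1 library other than the second NC pig, with an adjusted p of 0.0522 to 0.0761 (limma). That of BLVRB was lost without any 1 of the 6 libraries, with an adjusted p of 0.0516 to 0.0888 (limma). The level of BLVRB divided by that of BLVRA was 1.63, 1.38 and 2.17 in the NC pigs, and that of the HFCF pigs was 1.70, 1.60 and 1.23. The values were interleaved, and the mean log2 ratio differed by -0.17 (exact two-sided permutation test, p = 0.5; adjusted p over 3 ratios 0.5). No shift between the 2 reductases was detected with 3 pigs a group. HMOX2, the constitutive heme oxygenase, had 11.9, 11.9 and 12.2 FPKM in the NC pigs and 11.6, 14.3 and 12.4 FPKM in the HFCF pigs. It was not called, and the 95% confidence interval of its log2 fold change ran from -0.25 to 0.42.

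**Figure D2:**
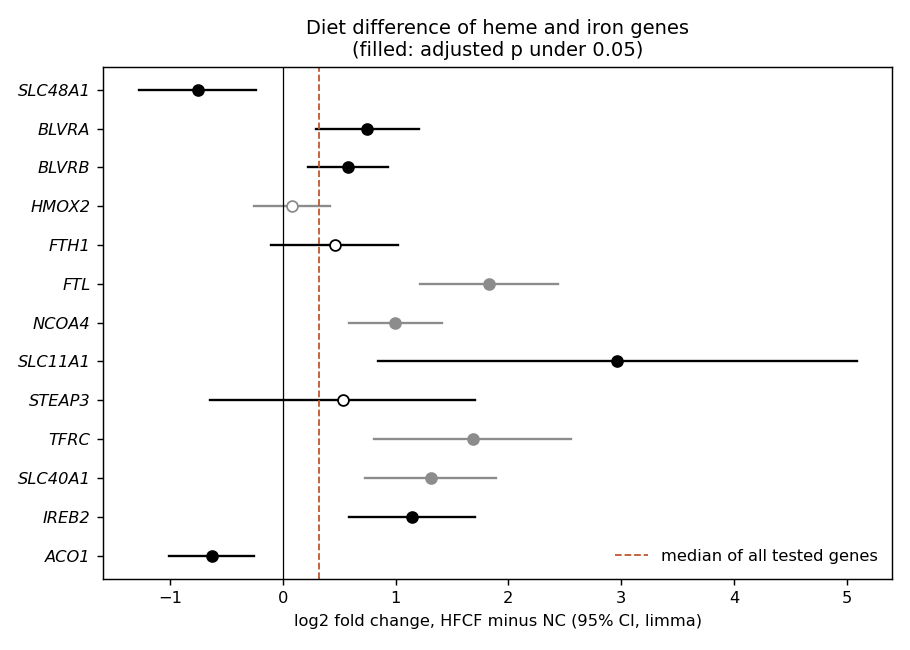
Log2 fold change of FPKM between HFCF and NC pigs with its 95% confidence interval from limma. Black marks the 8 matched genes and grey the partner genes HMOX2, FTL, NCOA4, TFRC and SLC40A1, filled points are called, and the dashed line is the median of all tested genes at 0.32. SLC48A1 and ACO1 lie below 0, while the intervals of FTH1 and STEAP3 include 0.

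FTH1 encodes the heavy chain of ferritin, the subunit that oxidises ferrous iron so that it can be stored. It had the highest level of the set by far, with 3794, 3234 and 3072 FPKM in the NC pigs and 5575, 4046 and 4352 FPKM in the HFCF pigs. The groups did not overlap in FPKM as deposited, but the difference did not pass the test. The means were 3367 ± 379 and 4658 ± 809 FPKM (SD, n = 3 each), and the log2 fold change was 0.46 (95% confidence interval -0.10 to 1.02, limma adjusted p = 0.187). FTH1 was not called in any of the 15 alternatives. Ferritin heavy chain has many near-identical gene copies, and how reads shared between copies were divided is not given in the sources used here. The other 2 ferritin heavy chain genes in the table, FTHL17 and an unnamed heavy subunit-like gene, were at 0 in every library.

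FTL encodes the light chain, which helps iron to form the mineral core of the ferritin shell. It had 363.9, 516.3 and 316.0 FPKM in the NC pigs and 1799, 1149 and 1288 FPKM in the HFCF pigs. FTL was picked by the study on these samples, so its ratio to FTH1 is not independent of that choice. The level of FTH1 divided by that of FTL was 10.4, 6.26 and 9.72 in the NC pigs, and that of the HFCF pigs was 3.10, 3.52 and 3.38. Every HFCF ratio lay below every NC ratio, and the HFCF ratios were close to each other. The mean was 8.80 ± 2.23 in the NC group and 3.33 ± 0.215 in the HFCF group (SD, n = 3 each), a log2 difference of -1.37. The exact two-sided permutation test gave p = 0.1, the smallest that 3 against 3 allows, and an adjusted p of 0.15 over the 3 ratios. A ratio of 2 genes in the same library does not depend on how that library was scaled, and with each library left out the log2 difference lay between -1.60 and -1.23.

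**Figure D3:**
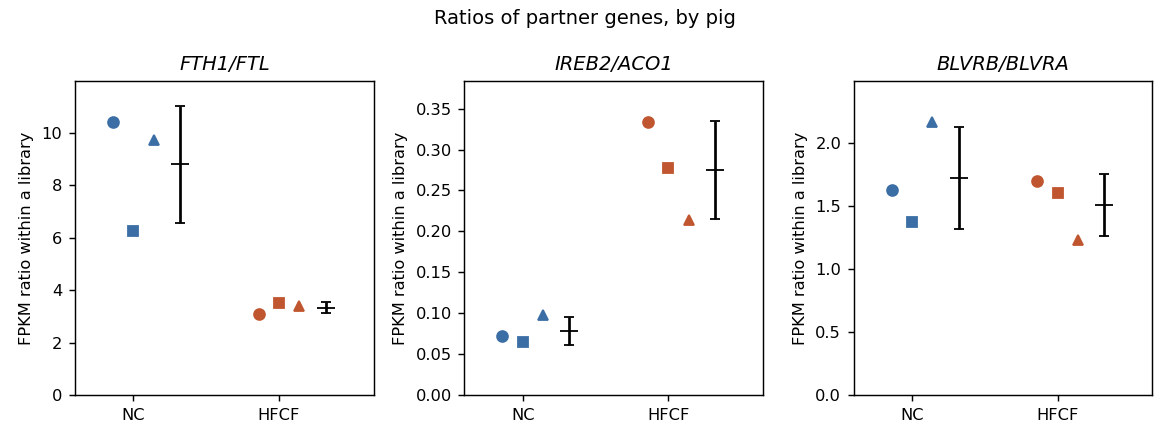
FPKM ratios within each library for FTH1 to FTL, IREB2 to ACO1 and BLVRB to BLVRA, by pig, with group mean and SD. The FTH1 to FTL ratio is 3.10 to 3.52 in HFCF pigs against 6.26 to 10.4 in NC pigs, the IREB2 to ACO1 ratio is higher in every HFCF pig, and the BLVRB to BLVRA ratios overlap.

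Of the transporters, SLC11A1 encodes NRAMP1, which carries ferrous iron and other divalent metals across the phagosome membrane of macrophages and neutrophils. It had 0.11, 0.46 and 0.27 FPKM in the NC pigs and 11.8, 1.68 and 0.89 FPKM in the HFCF pigs. The first HFCF pig was far above the other HFCF pigs, and the lowest HFCF value was still above the highest NC value. The log2 fold change was 2.96 with a standard error of 0.90 (limma adjusted p = 0.0464), the widest interval among the 8 genes, from 0.84 to 5.09. Without the first HFCF pig it was 1.91 (limma adjusted p = 0.046). The call was lost without any 1 of the NC pigs or without the second HFCF pig, with an adjusted p of 0.0711 to 0.15 (limma). Other settings that each ended the call were the 3 scalings, a pseudocount of 1, no filter, and no variance trend, while the direction held in all 15 alternatives.

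The level of SLC11A1 was set beside markers of blood and immune cells. The summed level of 13 macrophage markers was 62.8 to 76.9 FPKM in the NC pigs and 2277, 974.2 and 897.5 FPKM in the 3 HFCF pigs, and 12 of the 13 were called as higher. The sum of 5 neutrophil markers was 1.05 to 1.57 FPKM in the NC pigs and 73.0, 10.4 and 5.77 FPKM in the HFCF pigs, and 1 of the 4 tested, CSF3R, was called. CSF3R alone made up most of the HFCF sums, with 55.9, 8.38 and 4.55 FPKM. CXCR2 was not called, with 0.03 to 0.10 FPKM in the NC pigs and 5.19, 0.08 and 0.25 FPKM in the HFCF pigs. S100A8, a defining neutrophil marker, was not called, and it was at 0 in 4 libraries, at 0.22 FPKM in the second HFCF pig and at 11.2 FPKM in the first. ELANE, another neutrophil marker, was lowest in the first HFCF pig, at 0.71 FPKM against 0.80 to 1.71 FPKM in the other libraries. The sum of 9 red blood cell markers was 22.4 to 180.5 FPKM in the NC pigs and 2910, 87.5 and 96.5 FPKM in the HFCF pigs, and 1 of 7 tested was called. The first HFCF pig was thus highest for the sums of all 3 lists and for SLC11A1. It was also highest for T cell, B cell and endothelial markers, with sums of 16.9, 52.7 and 265 FPKM. The next highest library had 4.19, 38.4 and 261 FPKM. For fibroblast and adipocyte markers it was not the highest. The part of these cell types in the result was not tested. In pieces of aorta, a change in the number of cells of a type and a change in RNA per cell cannot be told apart. The sum of 9 smooth muscle markers went the other way, from 15971 to 22793 FPKM in the NC pigs to 8037 to 12932 FPKM in the HFCF pigs, with 6 of 9 called as lower.

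**Figure D4:**
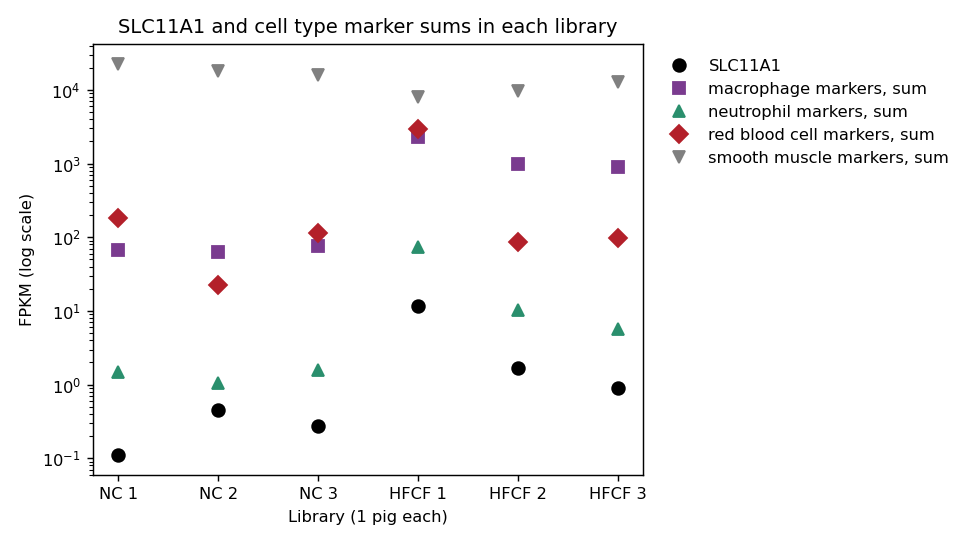
FPKM of SLC11A1 and summed FPKM of 4 marker lists in each library, on a log axis. The first HFCF pig has the highest SLC11A1, macrophage, neutrophil and red blood cell values and the lowest smooth muscle value.

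STEAP3 encodes the ferrireductase of the endosome, which reduces the iron released from transferrin before it enters the cytosol. It had 2.48, 4.69 and 1.12 FPKM in the NC pigs and 4.92, 2.70 and 3.13 FPKM in the HFCF pigs. The groups overlapped, since the second NC pig was higher than all HFCF pigs but the first. The log2 fold change was 0.53 (95% confidence interval -0.65 to 1.71, limma adjusted p = 0.457), so that a rise or a fall of appreciable size lay within the error. TFRC, which brings the transferrin and its iron into that endosome, rose to 4.09 ± 1.21 FPKM from 1.23 ± 0.53 FPKM (SD, n = 3 each), with a log2 fold change of 1.68 (limma adjusted p = 0.0164). Its call was lost without the first NC pig, without the second HFCF pig and after quantile normalization, with an adjusted p of up to 0.0553 (limma).

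IREB2 and ACO1 encode the iron regulatory proteins 2 and 1. ACO1 is the cytosolic aconitase when it holds an iron-sulfur cluster and binds RNA when it does not, while IREB2 is degraded in iron-replete cells. IREB2 had 1.66, 1.67 and 1.90 FPKM in the NC pigs and 5.24, 3.69 and 3.23 FPKM in the HFCF pigs. Every HFCF pig was well above the narrow NC range, and the first HFCF pig was the highest. The mean rose to 4.05 ± 1.05 FPKM from 1.74 ± 0.14 FPKM (SD, n = 3 each), with a log2 fold change of 1.14 (SE 0.24, limma adjusted p = 0.0135) and 0.82 above the median of all genes. IREB2 was called in 14 of 15 alternatives, including those without any 1 library, and lost it after quantile normalization (log2 fold change 0.62, limma adjusted p = 0.0845).

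ACO1 went the opposite way. It had 23.0, 25.9 and 19.6 FPKM in the NC pigs and 15.7, 13.3 and 15.1 FPKM in the HFCF pigs. The HFCF values lay close together below all NC values, and the mean fell from 22.9 ± 3.20 to 14.7 ± 1.26 FPKM (SD, n = 3 each). The log2 fold change was -0.63 (SE 0.16, limma adjusted p = 0.0265), or -0.95 relative to all genes, and it was between -0.98 and -0.80 under the 3 scalings, each of which kept the call. The call was lost without the first or second NC pig and without the second or the third HFCF pig, with an adjusted p of 0.0563 to 0.0873 (limma), and also without the variance trend.

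The level of IREB2 divided by that of ACO1 was 0.072, 0.064 and 0.097 in the NC pigs, and that of the HFCF pigs was 0.334, 0.278 and 0.214. ACO1 remained the more abundant of the 2 messages in every pig, but the gap narrowed in all HFCF pigs. The mean log2 ratio was 1.77 higher in the HFCF group, or 3.42-fold, with the exact permutation p at its floor of 0.1 and an adjusted p of 0.15 over the 3 ratios. With each library left out the log2 difference lay between 1.63 and 1.94.

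FPKM is per length, so levels can also be set in order between genes. In the NC pigs the order of mean FPKM was FTH1, SLC48A1, ACO1, BLVRB, BLVRA, STEAP3, IREB2 and SLC11A1. The ranges of neighbours overlapped only between BLVRA and STEAP3 and between STEAP3 and IREB2. In the HFCF pigs the order was FTH1, SLC48A1, ACO1, BLVRB, BLVRA, SLC11A1, IREB2 and STEAP3, and the last 4 overlapped with their neighbours, as did ACO1 with BLVRB. The top 5 places were thus held by the same genes in both groups. In the deposited annotation, ACO1, FTH1, IREB2 and SLC11A1 shared the term cellular iron ion homeostasis, and SLC11A1, SLC48A1 and STEAP3 shared endosome membrane. Of the 3 endosomal transporters and reductases, 1 rose, 1 fell and 1 was not called.

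The genes that the study named for iron accumulation were chosen on these samples, so their calls here are no independent evidence of a direction. All 4 were called as higher. The study also reported them as higher by quantitative PCR, and reported more TFRC and FTL protein and more iron in the abdominal aorta. Beside FTL and TFRC, SLC40A1, the iron exporter, rose to 9.66 ± 2.03 FPKM from 3.84 ± 0.94 FPKM (SD, n = 3 each), with a log2 fold change of 1.31. NCOA4, the cargo receptor that takes ferritin to the lysosome, rose to 13.0 ± 1.45 FPKM from 6.48 ± 0.96 FPKM (SD, n = 3 each), a ratio of means of 2.01. FTL, SLC40A1 and NCOA4 kept their calls in all 15 alternatives.

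The rest of the pathway was followed in 51 further genes of iron and heme handling, of which 43 were tested. Called were 9, or 20.9%, with 8 higher and 1 lower, which is under the 28.9% of all tested genes. Their median log2 fold change was 0.46, or 0.14 above that of all genes. The thresholds of the study were passed by 11 of the 43, where 25.5% of all tested genes passed. The calls were spread over uptake, export and their control (2 of 10 tested), storage, chaperones and mitochondria (2 of 10), heme uptake and transport (4 of 14) and heme synthesis (1 of 9).

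In the list of heme uptake and transport, 4 of 14 genes, or 28.6%, were called, close to the share among all tested genes. The 14 genes also included the heme oxygenase HMOX2 and the regulators BACH1 and NFE2L2, none of which was called. CD163, the scavenger receptor of macrophages for hemoglobin bound to haptoglobin, had 1.26, 1.70 and 1.27 FPKM in the NC pigs and 27.3, 6.47 and 8.94 FPKM in the HFCF pigs. The groups were far apart, with the first HFCF pig highest. The log2 fold change was 2.97 (limma adjusted p = 0.00693) and 2.37 without that pig. FLVCR2, a membrane transporter that has been linked to heme and choline, had 0.65, 1.47 and 0.33 FPKM in the NC pigs and 8.30, 3.06 and 2.87 FPKM in the HFCF pigs, a log2 fold change of 2.43 (limma adjusted p = 0.0214). SLC46A1, the proton-coupled folate transporter that also carries heme, was 2.15 to 2.82 FPKM in the NC pigs and 5.95 to 6.94 FPKM in the HFCF pigs, a log2 fold change of 1.32 (limma adjusted p = 0.00386). CD163 and SLC46A1 kept their calls in all 15 alternatives, while FLVCR2 lost its call without the first or the third NC pig and after quantile normalization.

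Among the other called genes, HFE, a regulator of iron uptake, had a log2 fold change of 1.34 and CYBRD1, a ferric reductase of the cell surface, one of 1.11. CISD1, an iron-sulfur protein of the outer mitochondrial membrane, had 1.46 and CPOX, an enzyme of heme synthesis, 1.29 on the same log2 scale. The adjusted p of these 4 genes lay between 0.00742 and 0.0242 (limma). HFE was called in all 15 alternatives. CYBRD1 was called in 14, CPOX in 13 and CISD1 in 10. CISD1 lost its call without the first or second NC pig, and also under median-ratio scaling and quantile normalization. CPOX lost its call after quantile normalization. The replicate number as a block also ended the calls of CISD1, CPOX and CYBRD1. The gene called as lower was PCBP1, an RNA-binding protein that also delivers iron to ferritin. Its level was 181.9, 169.7 and 174.3 FPKM in the NC pigs and 122.0, 116.4 and 123.2 FPKM in the HFCF pigs. The spread within each group was small beside the gap, and the log2 fold change was -0.54 (limma adjusted p = 0.0189). PCBP1 was not in the naming rule and was added after its value was seen, as the 1 lower gene of the count. It lost its call without the first NC pig or the second HFCF pig, and also with the replicate number as a block. ALAS2, the erythroid first enzyme of heme synthesis, was not called, and its 37.2 FPKM in the first HFCF pig compared with 0.73 to 3.93 FPKM elsewhere. It too was named after its value was seen.

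**Figure D5:**
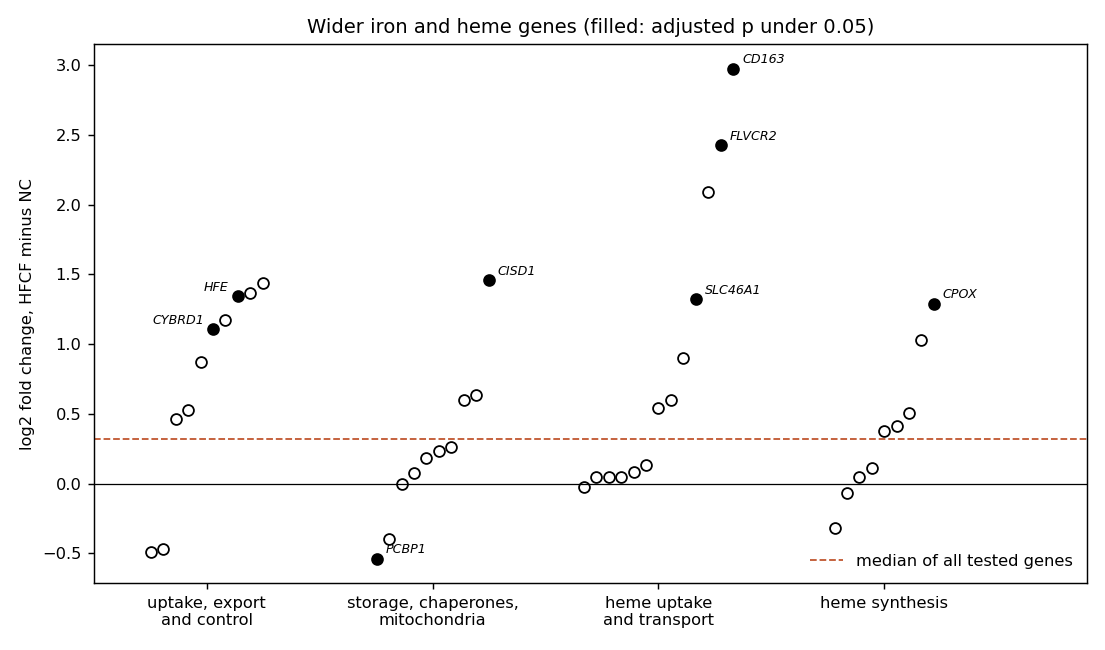
Log2 fold change of FPKM of 42 of the 43 further iron and heme genes tested, grouped by role, with called genes filled and named and the median of all tested genes dashed at 0.32. The 8 called genes shown are 7 above 0 and PCBP1 below it.

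The genes most like each called member over the 6 libraries were found by the root mean square difference between log2 values centred on their own mean, among 9585 genes with a symbol and a mean of at least 1 FPKM. For BLVRA the nearest was APEX1, a DNA repair endonuclease, at 0.04 on the log2 scale, followed by RIOX2 and MPC2. For BLVRB it was CFL1, the actin-severing cofilin, at 0.05, followed by MAPKAPK3 and BAZ2B. For SLC48A1 it was SSH3, a cofilin phosphatase, at 0.05, followed by CARM1 and BCAR1, and for ACO1 it was GID8 at 0.06, followed by AFDN and KANSL1. For IREB2 the nearest was SDCBP, the scaffold protein syntenin, at 0.08, followed by CCNL1 and ATP6AP1, an accessory subunit of the lysosomal proton pump. The distances for SLC11A1 were larger, but this measure is not scaled to the spread of a gene. SLC11A1 ranged from 0.11 to 11.8 FPKM, so its distances cannot be set against those of the other members. Its nearest gene, CPM, was at 0.45, followed by CSF2RB, the shared receptor chain for myeloid cytokines, and the leukocyte integrin ITGB7. These 3 genes had 11.9 to 26.8 FPKM in the first HFCF pig and at most 5.83 FPKM in any other library. None of the nearest genes was itself a member of the iron and heme lists. Those lists are a small part of the 9585 genes, so this absence says little. The centred values keep the difference between the groups, so genes with a like fold change come out as near.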

How the data were processed

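Total RNA of the abdominal aorta of 6 pigs was sequenced by the authors as paired-end reads, 1 library per pig. The deposited values are FPKM, made by the authors with HISAT2 alignment and StringTie, and the submitters' processing notes also name cutadapt 1.9 and FastQC. No coordinates are given, since the build in the methods predates that of the gene tables at hand. The table writes 0.0001 for genes without reads, here taken as 0, and 8661 genes were at 0 throughout.

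Values were analysed as log2(FPKM + 0.1) for genes with a mean of at least 0.1 FPKM, with limma 3.58.1 in R 4.3.3 (a 2-group design on diet, moderated with a mean-variance trend). P-values were adjusted by Benjamini-Hochberg across every tested gene. The RNA-Seq methods of the study name no test. Ratios of partner genes were compared with exact permutation tests in scipy 1.17.1. Of 5 ratios planned, 3 could be formed. The precision of a value is that of the spread between 3 pigs, and the relative depth of the libraries was 1, 1.09 and 1.37 (NC) and 1.03, 1.05 and 1.06 (HFCF).

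All matched members were described. Of the 51 further genes, the 8 with the largest change were named among those called with a mean of at least 1 FPKM, together with up to 3 genes most like each called member. Of these 8, 1 is not reported here. The 9 marker lists covered macrophages, neutrophils, red blood cells, smooth muscle, endothelium, fibroblasts, T cells, B cells and adipocytes. Members and lists were chosen with earlier results of these data known. Of 143 list entries, 132 were matched.

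Alternatives numbered 15: each of 6 libraries left out, 3 scalings, a pseudocount of 1 or 0.01, the filter dropped or raised to 1 FPKM, moderation without the trend, and the replicate number as a block. On simulated data of 15384 genes, 143 of 200 genes changed by 2 on the log2 scale were recovered with 9 false calls. The changed genes had a mean of at least 1 FPKM, and no shift common to all genes was simulated. These rates were therefore not measured for smaller changes, such as those of most members, or for a difference in scaling.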

Additional observations from a re-analysis of the deposited data

How the results depend on the processing

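All 120 values of the 8 genes under the 15 alternatives kept the direction of the log2 fold change, none became called, and 44 lost the call. The count of called members, 6 (4 higher and 2 lower), became 3 under median-ratio scaling (1 and 2), 2 under quantile normalization (0 and 2), 3 as TPM (1 and 2), 2 with eBayes without a trend (2 and 0) and 1 to 3 with a library left out. The study's thresholds gave 2 members, both higher, but 1 higher and 1 lower (SLC11A1 and SLC48A1) under median-ratio scaling and as TPM, 1 after quantile normalization, and 1 to 2 with a library left out (1 without the first NC pig, which lost SLC11A1, and 1 without the first HFCF pig, which lost IREB2). The 9 called genes of the wider lists were 5 after quantile normalization and 5 to 10 with a library left out, 5 of them without the first NC pig. Over all genes, 78.7% of calls were higher in the HFCF group, against 50.8%, 49.5% and 59.2% under median-ratio scaling, quantile normalization and rescaling to TPM. The ratio of BLVRB to BLVRA changed sign without the third NC pig (log2 difference 0.00084). Over the libraries left out, the log2 differences were -0.32 to 0.00084 for BLVRB to BLVRA, 1.63 to 1.94 for IREB2 to ACO1 and -1.60 to -1.23 for FTH1 to FTL. Why calls moved was not tested.

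With the replicate number as a block, 2 members (IREB2 and SLC48A1) and 5 of the wider genes were called, and calls over all genes went from 4453 to 2772. The numbers do not pair the pigs: the deviations of same-numbered pigs had correlations of 0.02, -0.08 and -0.07. Depths do not limit the abundant genes, but SLC11A1 in the NC pigs rests on values under 0.5 FPKM.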

Other observations

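Other marker lists gave these values. Of 8 endothelial markers 0 were called by limma at an adjusted p under 0.05 (3 had an unadjusted p under 0.05), of 7 fibroblast markers 1 was called as higher (LUM), of 7 T cell markers 2 were higher, of 5 tested B cell markers 1 was higher (CD79A), and of 7 adipocyte markers 1 was lower (PLIN4). The summed adipocyte markers ranged from 50.9 to 314.1 FPKM in the NC pigs and from 92.0 to 136.2 FPKM in the HFCF pigs. Haptoglobin (HP), which binds free hemoglobin for CD163, had 2.18, 2.57 and 2.25 FPKM in the NC pigs and 3.17, 3.44 and 3.70 FPKM in the HFCF pigs, with an adjusted p of 0.0676 (limma). NFE2L2, the factor NRF2 that drives HMOX1 in oxidative stress, ranged from 2.17 to 11.2 FPKM in the NC pigs and from 7.51 to 37.9 FPKM in the HFCF pigs, overlapped and was not called (adjusted p = 0.0748, limma).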
